A study of Homo sapiens with 4 samples.

Results

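The miR-193 and miR-365 clusters are a pair of gene clusters that each encode a miR-193 hairpin followed by a miR-365 hairpin, and they are described here in small RNA libraries of exosomes and cells of the breast lines MDA-MB-231 and MCF-10A. The members were the 4 names hsa-miR-193a-3p, hsa-miR-193a-5p, hsa-miR-193b and hsa-miR-365 (the prefix for human is left out below), matched exactly among the 1100 mature miRNA names of each deposited file, and the starred names miR-193b* and miR-365*, the opposite arms of the same hairpins, are given beside them. There were 4 groups with 1 library each: exosomes of MDA-MB-231, a triple-negative breast cancer line grown with 10% fetal bovine serum; MDA-MB-231 cells; exosomes of MCF-10A, a non-transformed mammary epithelial line grown with 5% horse serum, insulin, EGF, cholera toxin and hydrocortisone; and 1 library whose label reads MCF-10A cell (below, the MCF-10A-labelled cell library). Line and medium differ together and cannot be told apart. Since a group was 1 library, the spread between samples is unknown and p-values are not given. How the exosomes were purified was not given in the sources used here.

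miRNAs are cut from a hairpin precursor by Drosha and Dicer, and either arm of the hairpin can be loaded into an Argonaute protein, where bases 2 to 8, the seed, select target mRNAs. miR-193b has been reported to repress urokinase (PLAU) and the oestrogen receptor (ESR1) in breast cancer cells, and miR-193a-3p to repress the survival factor MCL1 and the receptor KIT. miR-193a-5p has been reported to repress the p53 relative TP73, and miR-193b and miR-365 to act together in brown fat formation in the mouse.

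The mature sequences show which of these names can act on shared targets and which cannot be told apart by sequencing. They are RefSeq sequences on GRCh38.p14, 5′ to 3′, with the seed in capitals, and each was matched to the older name used in the files (all 6 names matched).
miR-193a-3p: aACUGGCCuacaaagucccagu
miR-193b (now miR-193b-3p): aACUGGCCcucaaagucccgcu
miR-193a-5p: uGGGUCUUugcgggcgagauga
miR-193b* (now miR-193b-5p): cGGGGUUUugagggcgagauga
miR-365 (now miR-365a-3p and miR-365b-3p): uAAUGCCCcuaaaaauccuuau
miR-365a-5p: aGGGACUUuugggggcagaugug
miR-365b-5p: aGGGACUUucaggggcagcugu
miR-193a-3p and miR-193b share the seed ACUGGCC, which no other mature sequence in the RefSeq table holds, and match at 18 of 22 bases. Their differences, counted from the 5′ end with miR-193a-3p first, are U9C, A10U, A20G and G21C, all outside the seed. The 5′ arms of these hairpins also match at 18 of 22 bases, but differ at U1C, U5G, C6U and C11A, so miR-193a-5p and miR-193b* have different seeds. The miR-365 sequence is identical (22 of 22 bases) from both of its hairpins, so its reads cannot be assigned to a locus. The files do not say which of the pair of 5′ arms miR-365* stands for. miR-365 has 31.8% G and C, against 59.1% in miR-193b, miR-193a-5p and miR-193b*.

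The 4 hairpins are shown because the balance of their arms is compared between exosomes and cells below. The capitals mark the mature arms, first the 5′ and then the 3′ arm.
MIR193B: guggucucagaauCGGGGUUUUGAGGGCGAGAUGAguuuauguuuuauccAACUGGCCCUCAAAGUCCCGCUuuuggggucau
MIR365A: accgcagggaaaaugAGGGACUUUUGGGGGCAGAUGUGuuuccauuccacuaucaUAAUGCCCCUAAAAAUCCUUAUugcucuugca
MIR193A: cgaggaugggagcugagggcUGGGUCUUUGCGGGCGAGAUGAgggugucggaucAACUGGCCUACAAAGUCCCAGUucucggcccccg
MIR365B: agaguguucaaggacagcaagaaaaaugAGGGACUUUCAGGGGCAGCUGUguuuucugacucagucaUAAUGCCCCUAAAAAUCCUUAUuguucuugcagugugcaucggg
MIR193B lies on the plus strand of chromosome 16 at chr16:14303967-14304049 and MIR365A at chr16:14309285-14309371, 5235 bases further on, both in an intron of the long non-coding RNA gene MIR193BHG (GENCODE release 29). MIR193A lies on the plus strand of chromosome 17 at chr17:31559996-31560083, outside other annotated genes, and MIR365B at chr17:31575411-31575521, 15327 bases further on, in an exon of the long non-coding RNA gene AC003101.1. The coordinates are of GRCh38, and the deposited files hold none.

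As recovered from the deposited values, exosomes and cells of MDA-MB-231 gave 1532909 and 7346080 miRNA reads, exosomes of MCF-10A gave 1254644, and the MCF-10A-labelled cell library gave 10937897. Levels are the deposited values, log2 of reads per 10000000 plus 1, where 0 is 0 reads. Of 7 listed markers of mammary epithelium, 6 had 10 or more reads in exosomes and 5 in cells of MDA-MB-231, and 7 in both MCF-10A libraries. Their share of the reads was 0.0232% in exosomes and 0.0459% in cells of MDA-MB-231, against 4.41% in exosomes of MCF-10A and 1.0% in the MCF-10A-labelled cell library. The basal marker miR-205 stood at 13.56 in MCF-10A exosomes and 12.58 in the MCF-10A-labelled cell library, and the epithelial miR-200c at 18.52 and 15.38. The MCF-10A-labelled cell library also held miRNAs of other tissues: the 37 names of 8 such lists took 47.4% of its reads, and all 37 had 10 or more reads. In exosomes and cells of MDA-MB-231 they took 2.48% (21 names with 10 or more reads) and 0.0722% (11), and in exosomes of MCF-10A 0.0848% (12). The muscle list, which contains miR-1, summed to 12.4% of that library, against 0.0181% and 0.000109% of exosomes and cells of MDA-MB-231 and 0.000159% of MCF-10A exosomes, and the 6 placental names were at 0 in the other 3 libraries. In such bulk libraries, fewer cells of a type and less RNA per cell cannot be told apart. Every comparison below with that library carries this difference, whose part in the result was not tested. MDA-MB-231 exosomes also gave the lists of other tissues a larger share than their cells or MCF-10A exosomes did. Its part in the comparisons with MDA-MB-231 exosomes was not tested either.

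The 4 members took small shares of the reads, though not all ranked low. Among 436 names above 0 in MCF-10A exosomes miR-365 ranked 96. Among 794 in the MCF-10A-labelled cell library miR-193b ranked 93 and miR-365 ranked 106. Together the 4 members made up 0.0102% (157 reads, Wilson 95% interval 0.00876 to 0.0120) of MDA-MB-231 exosomal reads and 0.00791% (581 reads, 0.00729 to 0.00858) of the cellular reads, against 0.0296% (371 reads, 0.0267 to 0.0327) of MCF-10A exosomal reads and 0.189% of the MCF-10A-labelled cell library (20616 reads, 0.186 to 0.191). The labels describe no molecular identifiers, so reads may be PCR copies of 1 molecule, and these and all later intervals cover counting error only. Ligation preferences differ between sequences, so levels of different names in 1 library are less comparable than levels of 1 name between libraries.

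hsa-miR-193b, the 3′ arm of the chromosome 16 hairpin, stood at 7.84 (35 reads) in exosomes and 8.40 (247 reads) in cells of MDA-MB-231, against 10.07 (135 reads) in exosomes of MCF-10A and 13.25 (10655 reads) in the MCF-10A-labelled cell library. It was lower in both MDA-MB-231 libraries than in both MCF-10A libraries, and ranked 211, 182, 119 and 93 by level in the same order of libraries. Each neighbour in this order of levels differed beyond its counting interval, the closest being MDA-MB-231 exosomes, 1.47-fold lower than MDA-MB-231 cells (1.03 to 2.16).

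hsa-miR-365, which both clusters encode, stood at 6.72 (16 reads) in exosomes and 8.36 (241 reads) in cells of MDA-MB-231, against 10.66 (203 reads) in exosomes of MCF-10A and 12.73 (7430 reads) in the MCF-10A-labelled cell library. The order of the libraries was the same as for miR-193b, and each neighbour differed beyond its counting interval. The ratio of miR-365 to miR-193b reads was 0.457 (0.236 to 0.848) in exosomes and 0.976 (0.814 to 1.17) in cells of MDA-MB-231, against 1.50 (1.20 to 1.88) in exosomes of MCF-10A and 0.697 in the MCF-10A-labelled cell library (0.677 to 0.718). These within-library ratios do not depend on how the libraries are scaled.

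hsa-miR-193a-3p, which shares its seed with miR-193b, stood at 3.81 (2 reads) in exosomes and 5.39 (30 reads) in cells of MDA-MB-231, against 0 (0 reads) in exosomes of MCF-10A and 10.65 (1756 reads) in the MCF-10A-labelled cell library. It was thus near or below the detection limit in both exosome libraries: 3 reads would be 19.6 per 10000000 in MDA-MB-231 exosomes and 23.9 in MCF-10A exosomes. Only its step between the MCF-10A-labelled cell library and MDA-MB-231 cells lay beyond the counting interval. miR-193b reads outnumbered miR-193a-3p reads in every library, 17.5-fold (4.50 to 150) in exosomes and 8.23-fold (5.62 to 12.5) in cells of MDA-MB-231, and 6.07-fold in the MCF-10A-labelled cell library (5.77 to 6.39), with 135 against 0 reads in MCF-10A exosomes.

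hsa-miR-193a-5p, from the same hairpin as miR-193a-3p, followed another order. It stood at 9.41 (104 reads) in exosomes and 6.44 (63 reads) in cells of MDA-MB-231, against 8.04 (33 reads) in exosomes of MCF-10A and 9.47 (775 reads) in the MCF-10A-labelled cell library. MDA-MB-231 exosomes and the MCF-10A-labelled cell library did not differ beyond counting error, at a ratio of 0.958 (0.773 to 1.18), while the other neighbours in the order did. In MDA-MB-231 exosomes it was the most abundant of the 4 members, at rank 161, and in the other libraries miR-193b or miR-365 was.

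**Figure D1:**
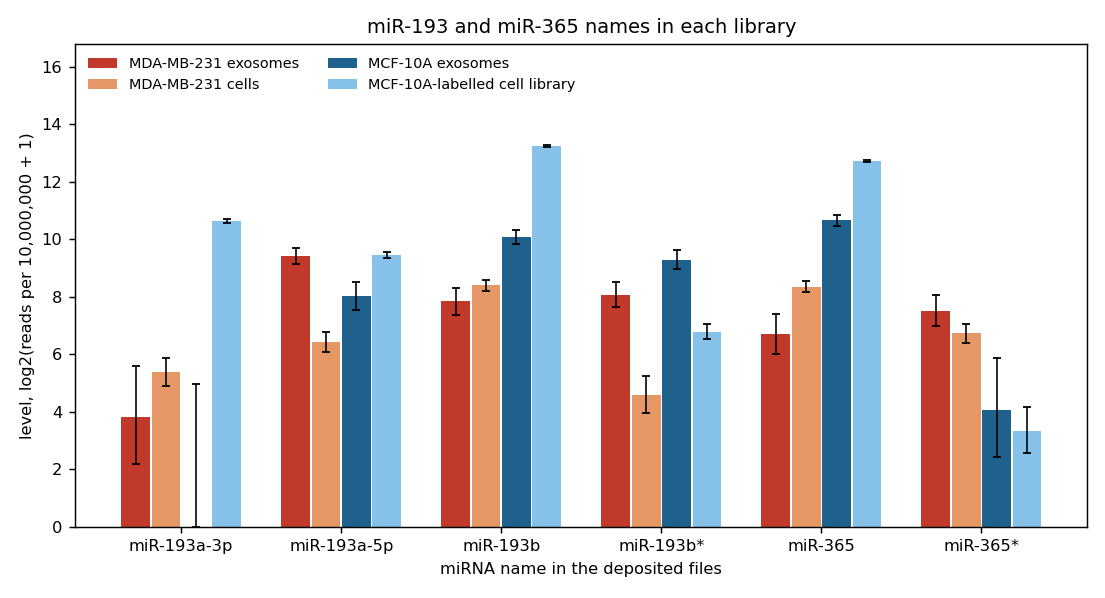
Deposited levels (log2 of reads per 10,000,000 plus 1) of the 4 members and the starred arms in the 4 libraries, with bars for 1 library each and Wilson 95% counting intervals on the recovered reads. miR-193b and miR-365 step up in 1 order of libraries, with 7.84 and 6.72 in MDA-MB-231 exosomes, while miR-193a-5p is as high in MDA-MB-231 exosomes (9.41) as in the MCF-10A-labelled cell library (9.47).

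The first comparison asked how the exosomes of the cancer line differ from those of the non-transformed line. miR-365 was 15.5-fold lower in MDA-MB-231 exosomes (16 against 203 reads, 95% interval 9.32 to 27.6) and miR-193b 4.71-fold lower (35 against 135 reads, 3.23 to 7.05). miR-193a-5p went the other way and was 2.58-fold higher (104 against 33 reads, 1.73 to 3.94). A name was called at a difference of 2 between deposited log2 levels, a 4-fold size, if it had at least 10 reads per 10000000 in 1 of the compared libraries. By this rule 2 of the 4 members were lower and 1 was higher, among 505 names of which 19% were lower and 29.3% higher. The higher member was miR-193a-3p, which had 2 against 0 reads and for which no fold is given. By a rule on the recovered reads (at least 10 reads in 1 library, a 4-fold ratio and an interval that excludes 1), miR-193b and miR-365 were lower and 0 members were higher, among 342 names of which 15.8% were lower and 24.0% higher. The median log2 difference was −0.43 over the members and 0.59 over all 505 names. Upper-quartile scaling moved that of all names to −0.28 and the split of their calls to 131 higher and 132 lower, beside 148 higher and 96 lower as deposited, and kept miR-193b and miR-365 lower.

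Of the starred arms, miR-193b* was lower like its partner and miR-365* was not. miR-193b* was 2.35-fold lower in MDA-MB-231 exosomes (41 against 79 reads, 1.60 to 3.52). miR-365* was higher by 11.5-fold (28 against 2 reads, 2.89 to 99.3), opposite to miR-365.

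The second comparison set the cells of the lines side by side and rests on the MCF-10A-labelled cell library. All 4 members were called lower in MDA-MB-231 cells by either rule, where 54.3% of 665 names were lower and 17.4% higher by levels, and 52.3% of 661 were lower and 16.9% higher by reads. The arms of MIR193A were 39.3-fold (miR-193a-3p, 27.4 to 58.4) and 8.26-fold lower (miR-193a-5p, 6.39 to 10.9). miR-193b was lower by 29.0-fold (25.5 to 33.0), and the ratio for miR-365 was 20.7-fold (18.2 to 23.6), also lower. A lower level was thus the common result in this comparison, with a median log2 difference of −2.83 over all names and −4.61 over the members. Upper-quartile scaling moved the median over all names to 0.47 and the members' log2 differences to −2.86 for miR-193a-3p, −2.43 for miR-193b, −1.95 for miR-365 and −0.62 for miR-193a-5p, and 2 members were then called lower, with 252 names higher and 246 lower in place of 116 and 361. Without the reads of the other-tissue lists in the totals the differences were larger in size, −6.19, −5.78, −5.30 and −3.96 in the same order, although any member reads that came from such tissues stay in them. miR-193b* was lower in these cells by 4.74-fold (2.84 to 8.41), and miR-365* was 11.5-fold higher (77 against 10 reads, 5.91 to 24.9), as it was in exosomes.

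**Figure D2:**
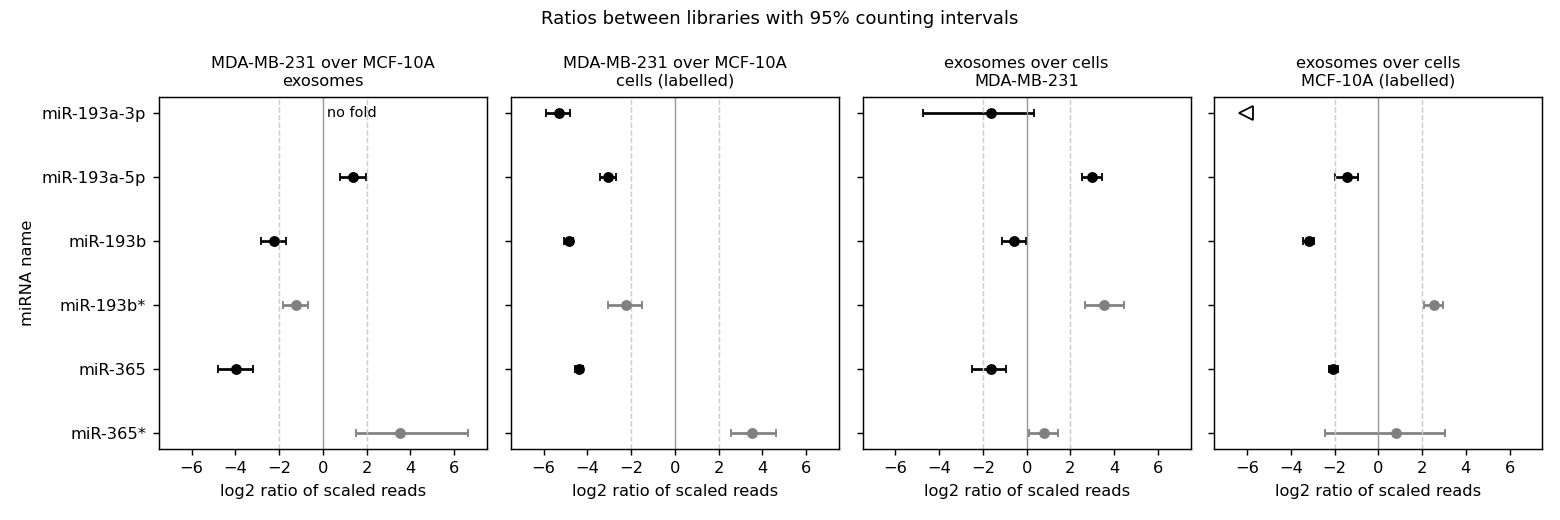
Ratios of depth-scaled reads (log2, first-named library over the second) of the members (black) and the starred arms (grey) in the 4 comparisons, with exact 95% counting intervals and dashed lines at a 4-fold size. The open triangle is miR-193a-3p with its 0 reads in MCF-10A exosomes set at 3 reads (67.1-fold lower), and no fold is drawn where it had 2 against 0 reads. miR-365* lies on the side opposite to miR-365 in both comparisons of the lines.

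The third comparison, MDA-MB-231 exosomes against their cells, does not involve the MCF-10A-labelled cell library. The exosomes gave 2.48% of their reads to the other-tissue lists, against 0.0722% in the cells, and the part of this was not tested. In the exosomes miR-193a-5p was 7.91-fold higher (104 against 63 reads at the depths above, 5.73 to 11.0). miR-365 was 3.14-fold lower (1.90 to 5.59) and miR-193b 1.47-fold lower (1.03 to 2.16), while miR-193a-3p, with 2 against 30 reads, gave a ratio of 0.320 with an interval that includes 1 (0.0370 to 1.26). Thus 1 of the 4 members was called higher and 0 lower by either rule, among 499 names of which 22.2% were higher and 13.4% lower by levels, and 427 of which 16.4% were higher and 9.84% lower by reads. The starred arm miR-193b* was 11.6-fold higher in these exosomes (41 against 17 reads, 6.42 to 21.7), and miR-365* was 1.74-fold higher (28 against 77 reads, 1.09 to 2.72). The median log2 difference was −1.07 over the members and −0.09 over all names. Upper-quartile scaling moved that of all names to −0.56 and called 2 members lower, miR-365 at −2.10 and miR-193a-3p at −2.02, with 99 names higher and 101 lower in place of 111 and 67.

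In the fourth comparison, MCF-10A exosomes against the MCF-10A-labelled cell library, 3 members were called lower by either rule and 0 higher, where 57.2% of 661 names were lower and 15.4% higher by levels, and 46.7% of 629 were lower and 11.0% higher by reads. miR-193a-3p was 67.1-fold lower in MCF-10A exosomes with its 0 reads set at 3 (0 against 1756 reads), and at least 54.55-fold lower by the limit of the exact interval. miR-193b was 9.05-fold lower (7.64 to 10.8), miR-365 4.20-fold lower (3.65 to 4.85) and miR-193a-5p 2.69-fold lower (1.90 to 3.94). A lower level was again the common result, with a median log2 difference of −3.27 over all names and −2.62 over the members. The differences of miR-193b (−3.18), miR-365 (−2.07) and miR-193a-5p (−1.43) were smaller in size than that median of all names. Under upper-quartile scaling miR-365 and miR-193a-5p turned to higher, with log2 differences of 0.68 and 1.31, and miR-193b stood at −0.43, where 234 names were higher and 241 lower in place of 102 and 378. miR-193b* was 5.74-fold higher in MCF-10A exosomes (79 against 120 reads, 4.27 to 7.69). It was thus higher in exosomes than in the library labelled as cells for either line. miR-365*, with 2 against 10 reads, had a ratio of 1.74 whose interval includes 1 (0.186 to 8.18).

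The design crosses 2 lines with exosomes and cells, but its MCF-10A side rests on the MCF-10A-labelled cell library. The other-tissue lists took 47.4% of that library, so what follows need not be a difference between the lines, and this was not tested. The difference between the exosome against cell differences was 4.40 on the log2 scale for miR-193a-5p (MDA-MB-231 minus MCF-10A, approximate 95% counting interval 3.74 to 5.09) and 2.62 for miR-193b (2.05 to 3.19). For miR-365 it was 0.43, with an interval of −0.34 to 1.17. miR-193a-3p is given no interval because it had 0 reads in MCF-10A exosomes. By deposited levels 3 members were called higher, where 53.9% of 701 names were higher and 19.4% lower, and the median over all names was 2.91. Without a replicate, this difference carries no error between samples. It was not computed under upper-quartile scaling, which moved the differences it is made of. Under that scaling exosomes against cells gave 2.51 in MDA-MB-231 and 1.31 in MCF-10A for miR-193a-5p, and −1.02 and −0.43 for miR-193b. The counting intervals do not cover the scaling.

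**Figure D3:**
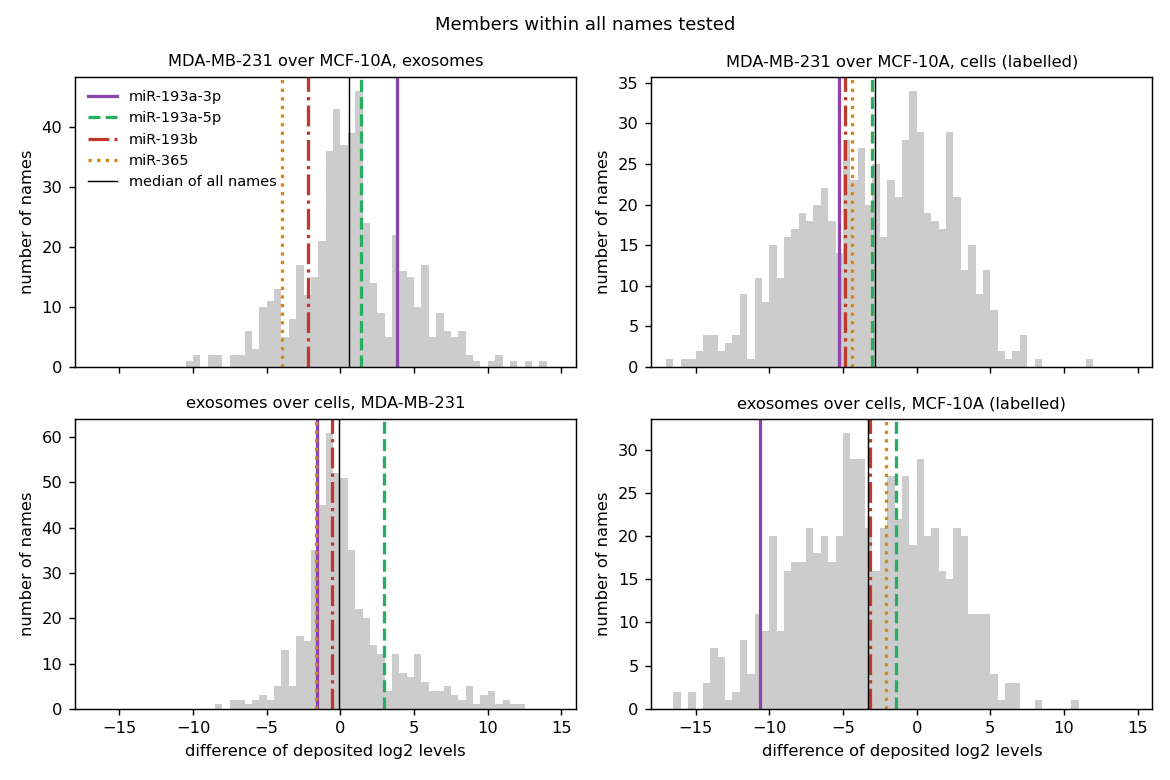
Differences of deposited log2 levels of all names tested in each comparison (grey, number of names per 0.5 log2), with the 4 members as coloured lines and the median of all names in black. In MDA-MB-231 exosomes against cells miR-193a-5p lies at 2.97 and the other 3 members lie below the median of −0.09.

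Within each hairpin, the share of reads from the 5′ arm was higher in exosomes than in the library labelled as cells of the same line. The difference for the miR-365 pair in MCF-10A was within counting error. This measure does not depend on the scaling between libraries and was chosen after the levels were seen. In MIR193A the 5′ arm, miR-193a-5p, gave 98.1% of the reads of both arms in MDA-MB-231 exosomes (104 of 106 reads, Wilson 95% interval 93.4 to 99.5), against 67.7% in MDA-MB-231 cells (63 of 93, 57.7 to 76.4). It gave 100% in MCF-10A exosomes (33 of 33, 89.6 to 100), against 30.6% in the MCF-10A-labelled cell library (775 of 2531, 28.9 to 32.4). The arm with more reads was thus the 5′ arm in 3 of the libraries and the 3′ arm in the MCF-10A-labelled cell library.

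In MIR193B the 5′ arm, miR-193b*, gave 53.9% in MDA-MB-231 exosomes (41 of 76 reads, 42.8 to 64.7), against 6.44% in MDA-MB-231 cells (17 of 264, 4.06 to 10.1). It gave 36.9% in MCF-10A exosomes (79 of 214, 30.7 to 43.6), against 1.11% in the MCF-10A-labelled cell library (120 of 10775, 0.932 to 1.33). The nominal passenger arm therefore gave about as many reads as miR-193b in MDA-MB-231 exosomes and a small share of the reads in the cells. For miR-365 and miR-365*, summed over their loci, the 5′ share was 63.6% in MDA-MB-231 exosomes (28 of 44, 48.9 to 76.2), against 24.2% in MDA-MB-231 cells (77 of 318, 19.8 to 29.2). It was 0.976% in MCF-10A exosomes (2 of 205, 0.268 to 3.49), against 0.134% in the MCF-10A-labelled cell library (10 of 7440, 0.0730 to 0.247). On the scale of the arm ratio (miR-365* over miR-365), the lines lay further apart for this pair than exosomes and cells did, at 1.75 and 0.320 in exosomes and cells of MDA-MB-231, against 0.00985 in exosomes of MCF-10A and 0.00135 in the MCF-10A-labelled cell library.

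**Figure D4:**
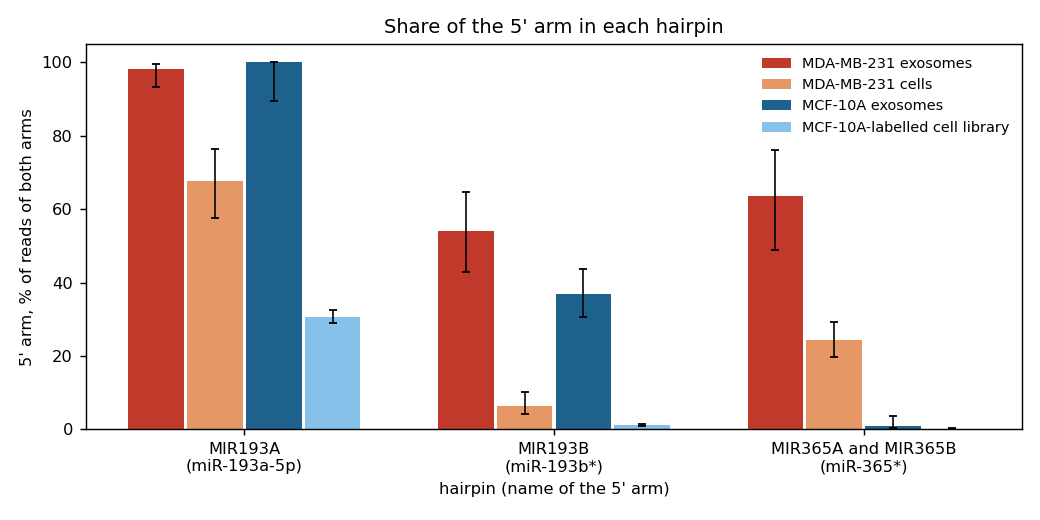
Share of the 5′ arm among the reads of both arms (percent) for each hairpin and library, with Wilson 95% counting intervals. MIR193A and MIR193B have higher shares in exosomes than in the library labelled as cells of each line, 98.1% against 67.7% and 53.9% against 6.44% in MDA-MB-231. miR-365* is above 20% in the MDA-MB-231 libraries only.

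A change of arm balance was measured for every hairpin whose arms are both named in the files. It was the change in the log2 ratio of the arms (starred over unstarred, or 5p over 3p). The side of the starred arm was not looked up for other hairpins, so a shift toward it need not be one toward the 5′ arm. Pairs entered with at least 10 reads summed over both arms and no arm at 0 in either library. Between MDA-MB-231 exosomes and cells 26.0% of 104 such pairs shifted by 2 or more in size, 11 toward the starred or 5p arm and 16 away from it. All 3 of the miR-193 and miR-365 pairs were among the 11. The ratio changed 24.8-fold for MIR193A (exact interval 5.86 to 218, resting on 2 reads of miR-193a-3p), 17.0-fold for MIR193B (8.33 to 35.2) and 5.48-fold for the miR-365 pair (2.69 to 11.4). Only MIR193A itself reached its size of shift among the 104 pairs. That of MIR193B was reached by 3 pairs, with MIR193A and MIR193B among them.

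Between MCF-10A exosomes and the MCF-10A-labelled cell library, shifts of this size were common (59.4% of 101 pairs). More of them were toward the starred or 5p arm (38) than away from it (22), and the median log2 shift over all pairs was 0.76. There MIR193B changed 52.0-fold toward the 5′ arm (36.7 to 73.1), a size that 12 pairs reached, itself included. The miR-365 pair changed 7.32-fold with an interval that includes 1 (0.774 to 34.6). MIR193A, with 0 reads of its 3′ arm in MCF-10A exosomes, changed by at least 19.1-fold by the lower limit of the exact interval. Between MDA-MB-231 and MCF-10A exosomes, 7.87% of 89 pairs shifted by 2 or more, and the miR-365 pair did so by the largest amount of the 89, 178-fold toward miR-365* (37.5 to 1588). MIR193B changed 2.0-fold (1.14 to 3.52). Between MDA-MB-231 cells and the MCF-10A-labelled cell library, 52.1% of 119 pairs shifted. Of these shifts, 40 were toward the starred or 5p arm and 22 away from it. The miR-365 pair changed 237-fold toward miR-365* (120 to 519), a size that 3 pairs reached, itself included. MIR193A changed 4.76-fold (3.0 to 7.7) and MIR193B 6.11-fold (3.39 to 10.4), also toward the 5′ arm. These sizes were reached by 47.1% and 42.9% of the pairs.

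The names whose levels over the 4 libraries ran most like each member were found from levels centred on each name's own mean, as the root mean square difference over the 4 libraries, among the other 565 names that reach 50 reads per 10000000 in some library. For miR-193b they were miR-296-5p (0.55), miR-328 (0.59) and miR-34a (0.59), and miR-365 came at place 5 with 0.63. For miR-365 they were the epithelial miR-200b (0.43), the p53-induced miR-34a (0.50) and miR-296-5p (0.56), and miR-193b again held place 5. miR-200b, for example, stood at 8.99 in exosomes and 10.60 in cells of MDA-MB-231, against 12.33 in exosomes of MCF-10A and 13.97 in the MCF-10A-labelled cell library. For miR-193a-5p they were miR-320c (0.42), the hypoxia-induced miR-210 (0.59) and miR-628-3p (0.60), and for miR-193a-3p they were the neuronal miR-9* (0.46), miR-424 (0.54) and miR-363 (0.69). The arms of MIR193A differed from each other by 3.64 on this measure. The patterns rest on 4 points that include the MCF-10A-labelled cell library, and some of the nearest names had few reads. miR-296-5p stood at 0 in exosomes and 1.90 in cells of MDA-MB-231, and at 3.17 in MCF-10A exosomes. miR-328 stood at 2.91 in MDA-MB-231 exosomes. miR-9* and miR-363 were at 0 in MCF-10A exosomes, like miR-193a-3p.

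miR-193b is 1 of 9 names in a list of miRNAs reported to repress ESR1, of which 8 passed the minimum and miR-302c was at 0 in every library. In MDA-MB-231 against MCF-10A exosomes 1 of the 8 was lower, miR-193b itself, and 1 was higher, miR-206 with 12 against 0 reads, which did not pass by reads. Over all 505 names 19% were lower and 29.3% higher. The most abundant of the list stayed within 4-fold there: miR-221 stood at 15.55 against 14.27, miR-222 at 14.13 against 13.95, miR-22 at 13.24 against 12.37 and miR-18a at 11.95 against 12.69. In MDA-MB-231 exosomes against cells, 1 of the 8 was higher (miR-206, 12 against 1 reads) and 1 lower (miR-18a at 11.95 against 14.46), where 22.2% of all names were higher and 13.4% lower. In each comparison with the MCF-10A-labelled cell library, 5 of the 8 were lower and 1, miR-18a, was higher, which is near the 54.3% (cells of the lines) and 57.2% (MCF-10A exosomes) of all names that were lower. The lower names included miR-206 both times, which is also on the muscle list and stood at 14.11 in that library.

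miR-193b and miR-365 are also 2 of 16 names in a list of miRNAs reported in brown adipocyte formation, much of it in mice. Of 15 tested in MDA-MB-231 against MCF-10A exosomes, 5 were higher and 4 lower, near the 29.3% higher and 19% lower over all names. The lower ones were miR-193b, miR-365, miR-182 (15.02 against 18.16) and miR-203 (7.36 against 11.39). The higher ones were miR-27b (17.10 against 14.79), miR-155, miR-455-5p and, with under 10 reads each, miR-133a and miR-455-3p. The abundant miR-378 (16.39 against 18.26) and miR-27a (16.37 against 15.38) stayed within 4-fold. In MDA-MB-231 exosomes against cells 4 of 15 were higher (miR-155, miR-196a, miR-203 and, on 2 reads, miR-133a) and 1 lower (miR-455-3p), against 22.2% and 13.4% of all names, with miR-193b and miR-365 within 4-fold. MDA-MB-231 cells against the MCF-10A-labelled cell library gave 2 higher and 9 lower of 16, and MCF-10A exosomes against that library 2 higher and 10 lower, with miR-193b and miR-365 among the lower names both times. These counts too are near those over all names, of which 17.4% were higher and 54.3% lower in the first and 15.4% and 57.2% in the second. Both times the lower names included miR-133a and miR-133b of the muscle list, at 15.39 and 14.33 in that library.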

How the data were processed

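The authors deposited log2 values with 2 decimals for 1100 miRNA names per library. The submitters' processing notes list Novoalign, edgeR and hg18. What each did, in which version, how reads were assigned to names and which miRBase release was taken are not given in the sources used here. Per the labels' protocols, TRIzol-extracted RNA was size-selected at 17 to 52 nt, and library making required a 5′ monophosphate (Genome Analyzer IIx).

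In each library 2 to the power of the value, minus 1, summed to about 10000000 (9992361 to 10004141), so values were read as log2 of reads per 10000000 plus 1. Low values were whole multiples of 1 step, the worth of 1 read, from which reads were recovered. Of nonzero names, 40.1 to 65.7% were low enough to resolve single reads (rounding interval under 0.5 reads), and 100% of these were whole within that interval. Larger numbers are known to the rounding of 0.005 log2. A fold against 0 reads sets that library at 3 reads. Ratios have exact conditional binomial 95% intervals, arm shares Wilson intervals, and arm ratios exact conditional odds ratio intervals (scipy 1.17.1, Python 3.11.15). The recovery and the calls were tested on simulated data. The changes planted there were larger than the 4-fold call and only in names with higher counts. Calls at read counts as low as those of miR-193a-3p in exosomes were not covered.

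The members and lists were chosen with earlier results of these data known. Named miRNAs were the members, their starred arms, the 3 nearest patterns of each, the 4 most abundant names of each list by mean level, and list names at a call; members of a list named outside this were chosen after their values were seen.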

Additional observations from a re-analysis of the deposited data

Results flagged for a closer look

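By the deposited levels, miR-193a-5p moved in opposite directions under the same contrast. Exosomes against cells gave a log2 difference of 2.97 in MDA-MB-231 and −1.43 in MCF-10A, and MDA-MB-231 against MCF-10A gave 1.37 in exosomes and −3.03 in cells. The counting intervals of all 4 ratios exclude 1, but they do not cover the scaling. Under upper-quartile scaling exosomes against cells gave 2.51 in MDA-MB-231 and 1.31 in MCF-10A, so the directions were then the same, and MDA-MB-231 against MCF-10A gave 0.68 in exosomes and −0.62 in cells. Median-of-ratios scaling kept opposite directions, with 3.04 and −0.75 for exosomes against cells. The difference was not tested against the spread between samples, since each group held 1 library, and the negative value of each pair uses the MCF-10A-labelled cell library.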

How the results depend on the processing

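Tried were another pseudocount (0.5 or 5), no minimum or one of 50 per 10000000, a 2-fold size, upper-quartile or median-of-ratios scaling, totals without the other-tissue lists or without miR-21, and the recovered reads. miR-193b and miR-365 stayed lower by 4-fold or more between MDA-MB-231 and MCF-10A exosomes throughout (log2 −2.92 to −2.07 and −4.62 to −3.78), and miR-193a-5p stayed higher in exosomes of MDA-MB-231 than in its cells (2.51 to 3.04). The 1 member called higher between exosomes, miR-193a-3p, became 0 members with a pseudocount of 5, a minimum of 50 or by reads, and 2 members were higher at a 2-fold size. Upper-quartile scaling gave 2 members lower in place of 4 between cells, 2 in place of 0 in MDA-MB-231 exosomes against cells (2 also at a 2-fold size), and 1 in place of 3 in MCF-10A exosomes against cells, where it reversed miR-365 to 0.68 and miR-193a-5p to 1.31. In that comparison miR-365 also lost its call under median-of-ratios scaling (−1.39) and without miR-21 (−1.66), leaving 2 members lower, and all 4 were lower without the other-tissue lists (miR-193a-5p at −2.36). Median-of-ratios scaling reversed miR-365 for the difference between the lines, 0.43 becoming −0.17. The cause was not tested. Upper-quartile scaling was among the settings not applied to the difference between the lines.

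Over all names, calls between exosomes were 148 higher and 96 lower by levels, and 82 and 54 by reads. In MDA-MB-231 exosomes against cells they were 111 and 67 by levels and 70 and 42 by reads, with 103 lower at no minimum, 38 at a minimum of 50, 149 at a 2-fold size and 101 under upper-quartile scaling. Between cells, 116 were higher, against 72 without the other-tissue lists and 252 under upper-quartile scaling. Asking 30 reads of an arm pair, chosen after seeing the data, gave 5.63% in place of 7.87% of pairs shifted between exosomes, and 27.5% in place of 26.0% between MDA-MB-231 exosomes and cells. The exosome libraries limit the precision: miR-193a-3p rests on 2 reads there in MDA-MB-231 and 0 in MCF-10A. No paired test was run, because each group held 1 library and any 2 groups share only 1 replicate number. With the lines as pairs, the only error would be the difference between their exosome against cell differences. The differences within each line are given as values without a test. No comparison with the MCF-10A-labelled cell library could be made without it.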
